A study of Mus musculus with 3 samples.

Results

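The genes for voltage-gated and related ion channels were examined in ChIP-seq data from the cortex of E13.5 mouse embryos. They were chosen by symbol, as the protein-coding genes of GENCODE M21 whose names begin with Kcn (potassium channels), begin with Cacn (calcium channels) or have the form Scn, a number and a or b (sodium channels). The rule found 134 of 21951 protein-coding genes, with 94 potassium, 14 sodium and 26 calcium channel genes, and it used no measured value. The series held 3 libraries of that tissue, namely 1 of input, 1 of NF-Y-ChIP made with an NF-YC antibody, and 1 of H3K4me3-ChIP. The labels name no genotype or treatment, and the number of embryos pooled is not given in the sources used here. For NF-Y-ChIP and for H3K4me3-ChIP a list of peaks called by MACS2 was used, on the mm10 (GRCm38) assembly. As each antibody has 1 library, replicate error cannot be given, and the results are counts, levels and ranges without a p-value. Read counts are not part of the lists, and the depth is therefore unknown.

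Voltage-gated channels open or close with the membrane potential and let potassium, sodium or calcium ions pass. Sodium channels carry the upstroke of the action potential, potassium channels repolarise the membrane and set its resting level, and calcium channels couple depolarisation to transmitter release and gene expression. A pore-forming alpha subunit is joined by auxiliary subunits that change its gating and its transport to the membrane. At the stage studied the cortex holds dividing progenitors beside the earliest neurons. H3K4me3 is a histone mark found at the promoters of active and of poised genes, and NF-Y is a trimeric transcription factor (NF-YA, NF-YB, NF-YC) that binds the CCAAT box.

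A gene is called marked below when any base of an H3K4me3-ChIP peak lay within 1000 bp of a transcription start site (TSS), the 5′ end of any of its annotated transcripts. By the same limit, 2 of the 134 channel genes had an NF-Y-ChIP peak, Cacna1b and Cacng7. The reference sequence around these summits is shown because they are the sites of NF-Y-ChIP signal near a channel TSS. Each is 75 bp to either side of the summit, read on the gene's strand, with CCAAT and its reverse complement ATTGG in capitals.
Cacna1b (chr2:24763205-24763355, minus strand): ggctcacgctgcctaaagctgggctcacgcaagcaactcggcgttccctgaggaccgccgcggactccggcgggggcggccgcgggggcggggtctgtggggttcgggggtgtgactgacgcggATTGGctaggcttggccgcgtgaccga
Cacng7 (chr7:3332709-3332859, plus strand): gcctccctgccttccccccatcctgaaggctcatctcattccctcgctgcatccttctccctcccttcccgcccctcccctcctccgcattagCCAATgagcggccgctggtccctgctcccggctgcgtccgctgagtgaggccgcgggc

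The promoters of channel genes also differed widely in CpG content. The next sequences, 150 bp before the 5′ end of the gene with every CG in capitals, are shown as pairs of related genes of which the former was marked and the latter was not. Kcna3 and Kcna10 lie in the same cluster of Kv1 genes, with the marked Kcna2 between them. Kcnmb4 and Kcnmb1 encode beta subunits of the large-conductance calcium-activated channel, in neurons and in smooth muscle respectively.
Kcna3 (chr3:107036019-107036168, plus strand): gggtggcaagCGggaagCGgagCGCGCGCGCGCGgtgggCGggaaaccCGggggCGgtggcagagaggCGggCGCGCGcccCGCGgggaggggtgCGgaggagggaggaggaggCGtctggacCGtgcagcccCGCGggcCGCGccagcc
Kcna10 (chr3:107182906-107183055, plus strand): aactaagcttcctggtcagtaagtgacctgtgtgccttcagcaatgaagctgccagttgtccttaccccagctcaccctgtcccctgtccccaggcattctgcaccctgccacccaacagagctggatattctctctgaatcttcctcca
Kcnmb4 (chr10:116473879-116474028, minus strand): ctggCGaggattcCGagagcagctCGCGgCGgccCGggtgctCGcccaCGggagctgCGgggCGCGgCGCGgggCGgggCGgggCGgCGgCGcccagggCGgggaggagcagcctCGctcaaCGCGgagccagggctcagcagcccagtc
Kcnmb1 (chr11:33962863-33963012, plus strand): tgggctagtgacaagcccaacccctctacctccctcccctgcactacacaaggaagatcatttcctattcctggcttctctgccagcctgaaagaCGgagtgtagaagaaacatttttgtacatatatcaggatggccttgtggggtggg
These windows hold 24 CpGs for Kcna3 and 22 for Kcnmb4, against 0 for Kcna10 and 1 for Kcnmb1. The pairs are examples and are not typical of marked and unmarked genes. By the limits for a CpG-rich start given below, 59 of the 100 marked and 30 of the 34 other channel genes were not CpG-rich.

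To ask which channel genes carried the mark in the embryonic cortex, the peaks were first counted by class. In total 100 of the 134 channel genes were marked, which is 74.6% (Wilson 95% confidence interval 66.6 to 81.2%), beside 62.7% of all protein-coding genes. The calcium channel genes had the highest share, with 23 of 26 (88.5%, 71.0 to 96.0%). The potassium genes had 67 of 94 (71.3%, 61.4 to 79.4%) and the sodium genes 10 of 14 (71.4%, 45.4 to 88.3%), and the intervals of the 3 classes overlap. The excess over all genes did not hold for strong peaks. When H3K4me3-ChIP peaks with a fold enrichment above the list median were kept, 48 channel genes (35.8%) had a peak, against 45.1% of all protein-coding genes, so that the order was turned. The genes for glutamate and GABA receptors, another set of neuronal membrane proteins, had 42 of 48 marked (87.5%, 75.3 to 94.1%).

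Within the potassium genes, 32 of 40 genes for voltage-gated pores were marked, including the 10 modifier subunits that join other pores. Of the pores opened by intracellular calcium or sodium 6 of 8 were marked, of the inward rectifiers (Kcnj) 9 of 15, of the tandem pore domain background channels (Kcnk) 9 of 14 and of the auxiliary subunits 11 of 17. All genes of the Kv2 (2), Kv3 (4) and Kv4 (3) families had a peak, whereas the Kv1 family had 5 of 8. Among the sodium genes the pores gave 6 of 10 and the beta subunits 4 of 4. Among the calcium genes the pores gave 8 of 10, with every P/Q-, N-, R- and T-type pore gene marked and 2 of 4 L-type genes. The auxiliary calcium subunits gave 15 of 16, with Cacng1 as the exception. Among the 15, Cacna2d4 was counted only by a peak at a TSS 94.2 kb from its 5′ end, 3 bp from a TSS of Lrtm2. Cacng6 was counted by a peak of 259 bp with a fold enrichment of 4.80. The intervals of these roles span the share of all genes, except those of the voltage-gated potassium pores (65.2 to 89.5%) and of the auxiliary calcium subunits (71.7 to 98.9%).

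**Figure D1:**
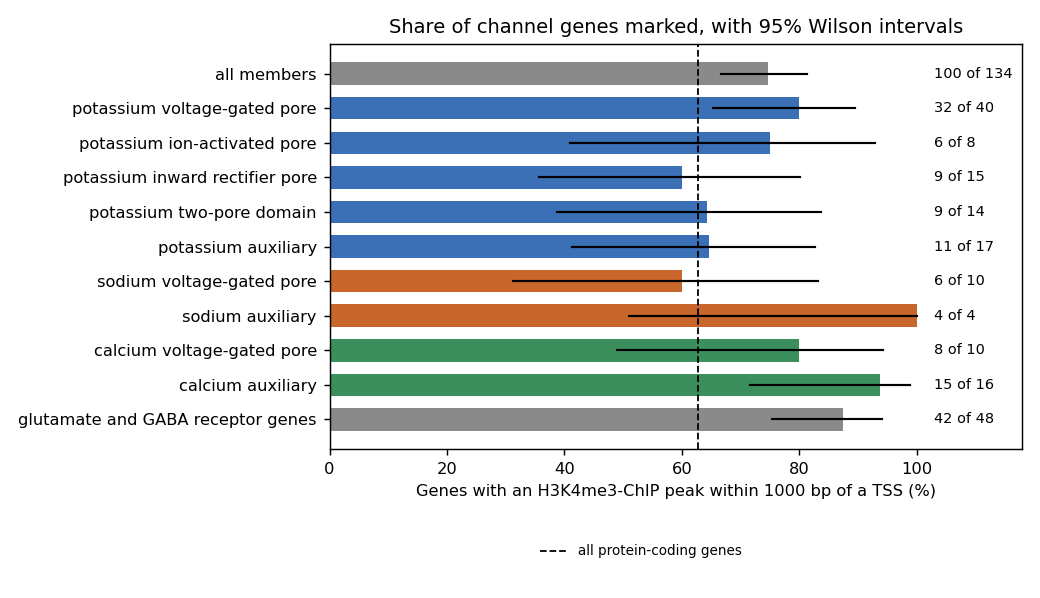
Share of channel genes with an H3K4me3-ChIP peak within 1000 bp of a TSS, in percent, by ion and role (bars, with the counts at the right) and for the receptor genes compared with them. Black lines are Wilson 95% intervals and the dashed line is the 62.7% of all protein-coding genes, which lies inside the interval of most groups and below that of all channel genes (66.6 to 81.2%).

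The channel genes without a peak were next examined by where they are known to act. A list of 16 members known mainly from tissues other than the brain had 2 marked genes, and a list of 24 members well known from the brain had 24, beside 62.7% of all protein-coding genes. The members of these lists were picked with earlier results of the data in view, so the counts describe the lists and the contrast between them supports nothing. Not every channel gene known from the brain is on the latter list, and Kcnj9, a G protein-gated inward rectifier known from the brain, was left off it and had no peak. On the former list, Cacna1s, Scn4a and Cacng1 of skeletal muscle, Scn10a, Scn11a and Kcnk18 of sensory neurons, Cacna1f and Kcnv2 of the retina, Kcnj1 of the kidney, Kcnu1 of sperm, Kcnmb1 of smooth muscle, Kcnk16 of the pancreas, Kcna10 of the inner ear and kidney and Kcnj13 of retinal and choroid epithelium had no peak. Of the marked genes on that list, Cacng6, a gamma subunit of muscle, had a fold enrichment of 4.80 over 259 bp. The value of Cacng6 was the lowest of all marked channel genes.

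Further genes for voltage-gated potassium pores without a peak were Kcna5 and Kcna7 of the Kv1 family, Kcnq1, Kcnh6 of the Erg family, and the modifier subunits Kcng4 and Kcns1. The sodium gene Scn7a, which encodes an atypical channel that senses sodium level, was also without one. Of the other potassium genes the inward rectifiers Kcnj9, Kcnj14, Kcnj15 and Kcnj16, the background channels Kcnk7, Kcnk9 and Kcnk15, the calcium-activated Kcnn4 and the auxiliary genes Kcne1, Kcne2, Kcne4, Kcnmb3 and Kcnrg had no peak. Of the 34, 4 lay close to the limit, in that a peak was found 1199 bp from a TSS of Cacna1s, 1425 bp from Kcnk9, 1453 bp from Kcnj9 and 1609 bp from Cacna1f. On the inner side the most distant peaks were 537 bp from Kcne1l, 447 bp from Cacng6 and 187 bp from Kcnk4. In 93 of the 100 marked genes a TSS lay inside the peak itself, beside 96.4% of all marked protein-coding genes.

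The labelled tissue was compared with markers of cell types that a cortical dissection could hold. All 15 markers of progenitors, neurons, forebrain and ventral telencephalon were marked, among them the neuronal genes Neurod6 at 4.61 and Tubb3 at 50.6. Of 17 markers of endothelium, microglia and blood, meninges, skeletal muscle and liver 6 were marked, at 4.76 to 30.2, among them Kdr, Col1a1, Foxc1, Twist1 and Ckm, while Myod1 and Myog of muscle and Alb of liver had no peak. A mark on a gene in a few cells and in all cells of the tissue cannot be told apart in a bulk library, and the part of such cells in the peak of Cacng6 was not tested.

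The strength of the mark was measured as the fold enrichment at the summit of a gene's strongest peak over the local background, as given by MACS2. The 100 marked channel genes had a median of 25.9 (range 4.80 to 57.4), against 39.9 for all 13767 marked protein-coding genes. When all marked genes were split by strength into 4 groups of equal size, 50 channel genes fell in the weakest (up to 25.7), 29 in the next, 18 in the next and 3 in the strongest (above 52.7). The class medians were 19.4 for sodium, 25.5 for potassium and 32.2 for calcium, each below that of all marked genes. The receptor genes had a median of 22.8. The width of the widest peak showed no such shift, with a median of 1411.5 bp for the channel genes and 1419 bp for all marked genes.

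**Figure D2:**
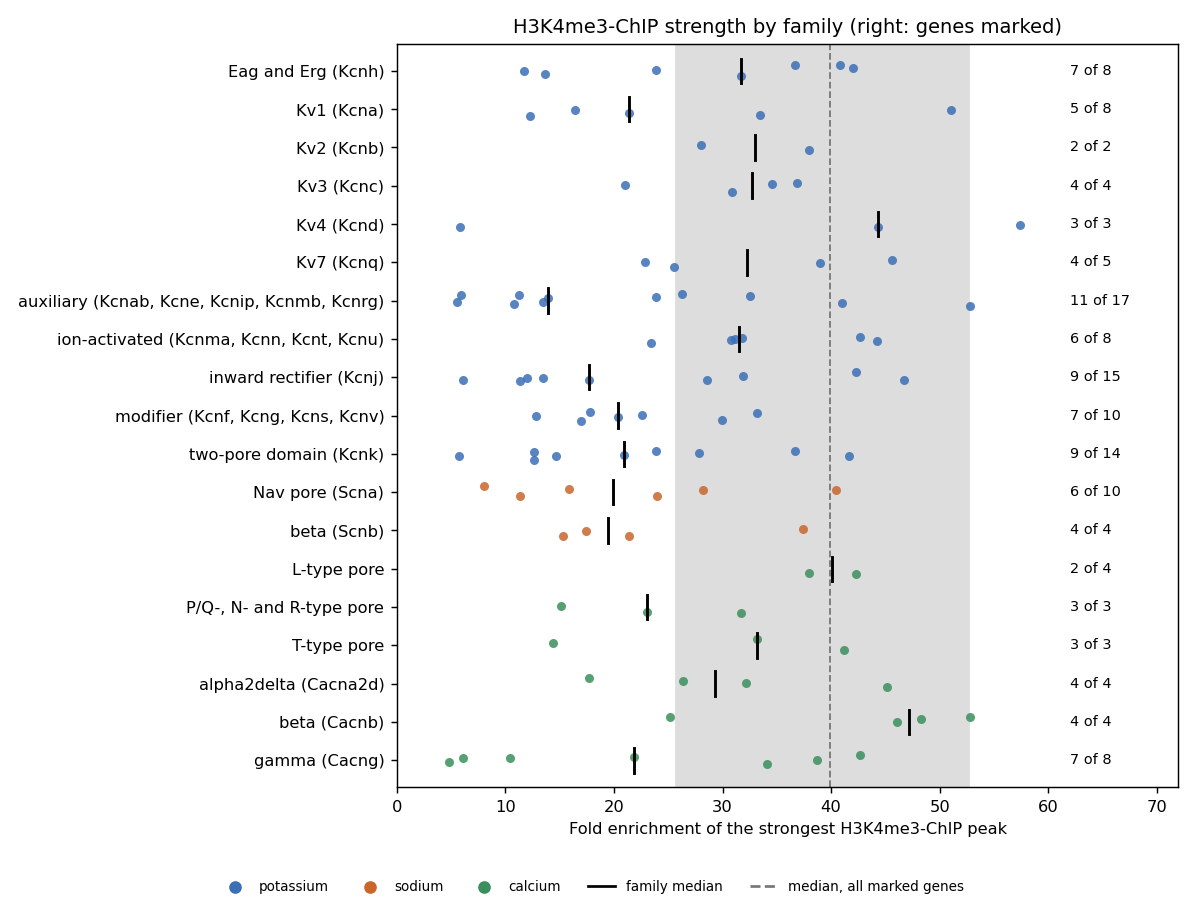
Fold enrichment of the strongest H3K4me3-ChIP peak of each marked channel gene (points, 1 per gene; vertical jitter has no meaning), by family, with the family median as a black line and the number of marked genes at the right. The grey band spans the middle 50% of all marked protein-coding genes (25.7 to 52.7) and the dashed line is their median of 39.9, above which the median of 3 families lies.

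Of the potassium genes the strongest was Kcnd2, which encodes a pore of the A-type current in dendrites, with a fold enrichment of 57.4 and a peak of 1947 bp. Next were Kcnmb4 (52.8), Kcna3 (51.0), a Kv1 channel also known from lymphocytes, and Kcnj11 (46.7), the pore of the channel closed by ATP. The A-type pore gene Kcnd3 had 44.3, the small-conductance calcium-activated Kcnn2 44.2 and the large-conductance Kcnma1 42.6. The weakest marked potassium genes were Kcne1l (5.52), Kcnk4 (5.70) and Kcnd1 (5.85), so that the Kv4 family held both the strongest and one of the weakest. Among the families, Kv4 (median 44.3) was highest and the auxiliary subunits (13.9) and inward rectifiers (17.7) were lowest.

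The beta subunits were the strongest family of calcium channel genes, with a median of 47.2. Cacnb4 had 52.8, Cacnb2 48.3 and Cacnb3 46.1, whereas Cacnb1, the beta subunit of skeletal muscle, had 25.2. Next came Cacna2d3 (45.2) of the alpha2delta subunits, Cacng4 (42.7) of the gamma subunits that also traffic AMPA receptors, and Cacna1d (42.3), an L-type pore. The lowest values were found within the gamma family, in Cacng6 (4.80), Cacng3 (6.10) and Cacng5 (10.4). The gamma genes thus covered 4.80 to 42.7, nearly the whole range of the calcium class.

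The sodium channel genes were mostly weak, and 7 of 10 fell in the weakest of the 4 groups. Scn8a, the pore found at the axon initial segment of mature neurons, was highest at 40.4, followed by the beta subunit gene Scn2b at 37.4. The other brain pores were lower, with 24.0 for Scn1a, 11.3 for Scn3a and 8.02 for Scn2a. Scn3a is known as a sodium pore of the embryonic brain and Scn2a as that of immature axons, and their fold enrichment was the lowest of the class. Scn9a of peripheral neurons had 15.9. Of the other beta subunit genes, Scn3b had 21.4 and Scn4b 15.3.

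Although the median width was close to that of all genes, the families differed. The 6 marked genes for ion-activated potassium pores had a median of 2545.5 bp. The 3 small-conductance genes made up 3 of the 5 widest peaks of the channel genes, with 3818 bp at Kcnn2, 3289 bp at Kcnn1 and 3205 bp at Kcnn3. The others of the 5 were Cacnb3 (3359 bp) and Kcnd3 (2865 bp). A wide peak was not always a strong one, since Kcnn3 had a fold enrichment of 23.4. Conversely Kcnj11, with 46.7, had a peak of 725 bp. The medians by class were 1046 bp for sodium, 1383 bp for potassium and 1935 bp for calcium.

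**Figure D3:**
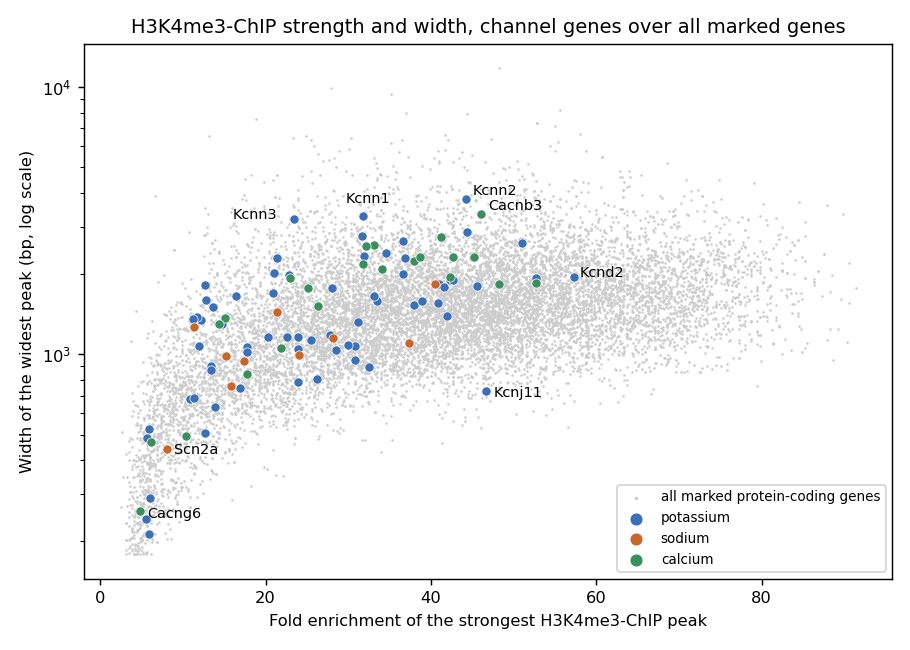
Fold enrichment of the strongest H3K4me3-ChIP peak (x axis) against the width of the widest peak (y axis, bp, log scale) for the 100 marked channel genes, coloured by ion, over all 13767 marked protein-coding genes in grey. The channel genes lie at the left of the cloud (median 25.9 against 39.9) and at its middle height (1411.5 against 1419 bp).

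The summit of the strongest peak lay a median of 99 bp downstream of the nearest TSS, and downstream in 65% of the channel genes. For all marked genes the median was 122 bp and the share 76.5%. By class the share was 61.2% for potassium, 69.6% for calcium and 80% for sodium. A distance of at most 500 bp was found for 89% of the channel gene summits and 91.7% of those of all marked genes. The farthest were Kcnh8, 1291 bp upstream, and Kcnk13, 1247 bp downstream, both chosen after their values were seen.

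To relate the mark to promoter sequence, CpG content was computed in the window from 250 bp before to 50 bp after the 5′ end of each gene. The CpG ratio is the number of CpGs over that expected from the C and G content, and a window was called CpG-rich at a ratio of at least 0.6 and a GC content of at least 50%. Marked channel genes had a median ratio of 0.537 and the 34 others 0.249. Both differed from their counterparts among all genes, which had 0.736 and 0.176. By these limits 41 of the 100 marked channel genes were CpG-rich, against 63.9% of all marked genes.

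Of the 45 channel genes with a CpG-rich start 41 were marked (91.1%, 79.3 to 96.5%), beside 97.1% of all such genes. Of the 89 without, 59 were marked (66.3%, 56.0 to 75.3%), beside 38.6% of all such genes. The higher share of marked channel genes was therefore seen at starts that were not CpG-rich. The 4 CpG-rich genes without a peak were Kcnh6, Kcnk9, Kcnk15 and Kcns1. The motif TATAAA occurred in the 250 bp before the start, on the gene's strand, in 0 of the 100 marked and 3 of the 34 other channel genes, beside 3.91% of all marked and 14.5% of all other genes.

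The 5′ end of a gene is not always the start that carries the mark. In 20 of the 100 marked channel genes the TSS nearest to the strongest peak lay more than 1000 bp from the 5′ end of the gene, against 10.6% of all marked genes. At the nearest TSS the median CpG ratio of marked channel genes was 0.775, and 67 of 100 were CpG-rich (57.3 to 75.4%), beside 0.812 and 79.1% for all marked genes. Cacna1a, the P/Q-type pore gene, had a ratio of 0.0774 at its 5′ end and 0.952 at its marked TSS, 27344 bp downstream. The L-type genes Cacna1c and Cacna1d were alike in this, with 0.152 and 0.338 at the 5′ end and 1.10 and 1.18 at marked TSSs 87845 and 137969 bp downstream. Sodium genes stayed lower, with 4 of 10 CpG-rich at the nearest TSS, among which Scn8a had 1.21. The strength of the mark stayed lower at CpG-rich starts as well, with a median of 28.5 for the 67 channel genes and 43.0 for all such genes.

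**Figure D4:**
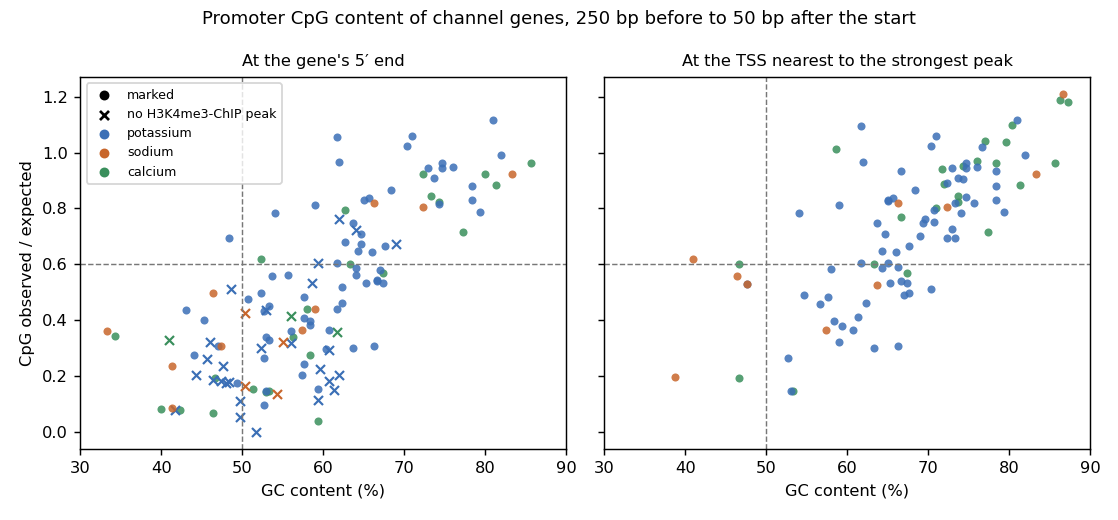
CpG observed over expected ratio (y axis) against GC content in percent (x axis) of the 300 bp promoter window of each channel gene, at the 5′ end of the gene (left; crosses are genes without a peak) and, for marked genes, at the TSS nearest to the strongest peak (right). Dashed lines are the limits of 0.6 and 50% for CpG-rich, above which lie 41 marked genes on the left and 67 on the right.

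Many channel genes have several annotated promoters. When TSSs within 1000 bp of the next were joined, the 134 genes had 338 promoter regions, of which 131 (38.8%) were marked, beside 33.0% for all protein-coding genes. In 16 of the 100 marked channel genes 2 or more regions were marked by different peaks, against 7.76% of all marked genes. Kcnip4, which encodes a protein that binds Kv4 channels, had 4 such regions of 6, with fold enrichments of 32.6 at its 5′ end and 6.14, 12.1 and 2.76 at 239, 635 and 925 kb from it. Cacna1a had 3 of 6, with no peak at its 5′ end, 31.7 at 26.9 kb, 4.85 at 213 kb and 30.2 at 251 kb. The last of these peaks lies near the 3′ end of the gene. Cacnb4 had 3 of 3 regions marked, by 52.8 at the 5′ end and by 1 further peak of 10.7 that served 2 regions.

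In the sodium genes with several marked regions the downstream one was the stronger. Scn1a had 4.95 at its 5′ end and 24.0 at a TSS 30.8 kb downstream, and Scn2a had 5.52 and 8.02, 47.9 kb apart. Kcnn2 likewise had 33.3 at the 5′ end and 44.2 at 291 kb, and Cacna1e, the R-type pore gene, 10.1 and 15.1 at 158 kb. In Kcnh2, by contrast, the 5′ end had 42.0 and a region 22.0 kb downstream 7.46. Further genes with separately marked regions were Cacna2d2, Kcnip2, Kcnip3, Kcnk3, Kcnk10, Kcnn1 and Kcnt1, and those beside the members with the most regions were chosen after their values were seen. Among the 72 marked genes with several regions the most upstream one was marked in 64 (88.9%), close to the 91.5% of all such genes.

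**Figure D5:**
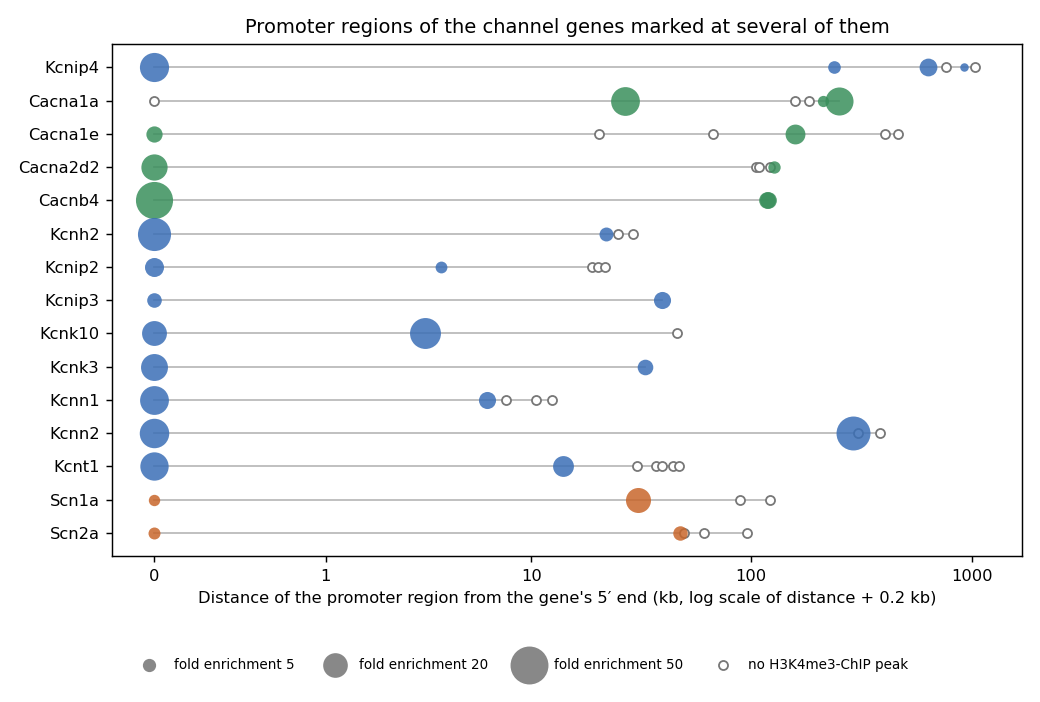
Promoter regions of 15 of the 16 channel genes in which different H3K4me3-ChIP peaks marked 2 or more of them, by distance from the 5′ end of the gene (x axis, kb, log scale of distance + 0.2 kb). Filled circles are marked regions, with area in proportion to fold enrichment, and open circles have no peak; Kcnip4 has 4 separately marked regions, and in Scn1a the downstream region (24.0) exceeds that at the 5′ end (4.95).

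Peaks inside channel genes but more than 1000 bp from their own TSSs numbered 30, in 22 genes (16.4%, beside 7.20% of all protein-coding genes, whose median length of 17403 bp compares with 42456 bp for the channel genes). Of these, 6 lay within 1000 bp of a TSS of another annotated gene. The Dcp1 genes encode proteins of mRNA decapping. In Cacna1c a peak of 49.2 lay at a TSS of Dcp1b, and in its paralogue Cacna1d one of 54.7 lay at a TSS of Dcp1a. Each of these peaks was stronger than that of the channel gene itself (37.9 and 42.3). Kcnq1, which was not marked, held a peak of 14.6 over 2121 bp at a TSS of Kcnq1ot1, the antisense transcript of that imprinted locus. In 24 of the 30 peaks no TSS of any annotated gene lay within 1000 bp, and the strongest was in Scn8a, with 27.6 at 114 kb from the 5′ end. The members named in this paragraph outside the rule for named genes were chosen after their values were seen.

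Channel genes seldom shared a promoter. In 2 of 134 (1.49%) another protein-coding gene had a TSS within 1000 bp, against 14.5% of all genes. Cacna2d4 and Lrtm2 start 3 bp apart on opposite strands, under a peak of 17.7, and Kcnab2 and Nphp4 start 271 bp apart, also on opposite strands, under a peak of 41.0. Among genes without such a neighbour 98 of 132 channel genes were marked (74.2%), beside 58.1% of all protein-coding genes.

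Several channel genes lie close to one another. When members with gaps of up to 200 kb were joined, 16 clusters were found, of which 11 held marked and unmarked genes, 4 held marked genes only and 1 held none. On chromosome 3 (chr3:107036169-107195721) Kcna3 and Kcna2 were marked at 51.0 and 33.4, and Kcna10 was not. On chromosome 6 (chr6:126532551-126740674) Kcna1 and Kcna6 had 21.4 and 16.4, and Kcna5 had no peak.

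The gamma subunit genes form 2 of these clusters. On chromosome 11 (chr11:107703218-107915055) Cacng4 had 42.7, Cacng5 10.4 and Cacng1 none. On chromosome 7 (chr7:3332955-3435667) all 3 genes were marked, Cacng7 and Cacng8 at 38.7 and 34.1 and Cacng6 at 4.80. Genes of such clusters named outside the rule were chosen after their values were seen.

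NF-Y-ChIP peaks were then sought at the channel genes. They were found within 1000 bp of a TSS in 2 of 134 genes (1.49%, 0.41 to 5.28%), beside 3.2% of all protein-coding genes. Among marked genes the counts were 2 of 100 and 5.08% of all. The interval of the channel genes includes 3.2% and 5.08%, so a lower share than that of all genes was not detectable with this number of genes. The counts were 0 of 94 potassium genes (Wilson interval up to 3.93%), 0 of 14 sodium genes (up to 21.5%), and 2 of 26 calcium genes (7.69%, 2.14 to 24.1%). The intervals of all 3 classes include 3.2%. By the study's rule for a target gene, which takes peaks in the gene body and in the 5 kb before it, the count was also 2, beside 3.69% of all genes.

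At Cacna1b, the pore gene of N-type channels at nerve terminals, the NF-Y-ChIP peak (chr2:24763118-24763436) had a fold enrichment of 10.5, rank 115 of 733 in the list. Its summit lay 128 bp upstream of the TSS, inside an H3K4me3-ChIP peak of 23.0 and 1935 bp. At Cacng7, a gamma subunit gene, the peak (chr7:3332689-3332909) had 8.33, rank 209, with the summit 171 bp upstream of the TSS and inside an H3K4me3-ChIP peak of 38.7 and 2304 bp. Both were above the median of the NF-Y-ChIP list, 6.75. In the sequences printed above, the box of Cacng7 lies 20 bp from the summit, and that of Cacna1b 51 bp from it. The boxes begin 153 and 79 bp before the start of the gene, respectively.

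A CCAAT or ATTGG occurred in the window from 250 bp before to 50 bp after the start in 39 of the 134 channel genes (29.1%), against 39.0% of all protein-coding genes. By class there were 27 of 94 potassium, 2 of 14 sodium and 10 of 26 calcium genes. Of the 39 genes 2 had an NF-Y-ChIP peak (5.13%, beside 6.54% of all genes with a box), and of the 29 that were also marked 2 did (6.90%, beside 10.7%). Of the 95 channel genes without a box 0 had a peak, beside 142 of 13382 such genes in all.

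Repeated boxes were found in 8 channel genes (5.97%, beside 12.7% of all genes). Of these 0 had an NF-Y-ChIP peak, beside 411 of the 2785 such genes in all. The 411 were all among the 1894 marked genes with repeated boxes, and 5 of the 8 channel genes were marked. A lower share than that of all such genes was not detectable with 8 genes. In 3 marked members both boxes lie before the start, and their surroundings are shown, 10 bp to each side on the gene's strand with the box in capitals, since these are channel promoters with repeated boxes and no peak. The name of each gives the distance in bp from the start to the box.
Cacna1g, 244 bp before (chr11:94474428-94474452, minus strand): acgcacggcgATTGGctgtgagatt
Cacna1g, 232 bp before (chr11:94474416-94474440, minus strand): tggctgtgagATTGGctggggaaag
Kcnip2, 244 bp before (chr19:45816291-45816315, minus strand): gtgcctgagaATTGGaggcggggtt
Kcnip2, 71 bp before (chr19:45816118-45816142, minus strand): gtagggggagCCAATcccggcagcg
Kcnj10, 104 bp before (chr1:172341096-172341120, plus strand): ccaaatctctCCAATccccaggcgc
Kcnj10, 67 bp before (chr1:172341133-172341157, plus strand): ccgatctgccATTGGccggctccaa
Cacna1g encodes a T-type pore, Kcnip2 a partner of Kv4 channels and Kcnj10 an inward rectifier of glia, and they were chosen after their boxes were seen. Their H3K4me3-ChIP values were 41.2, 13.9 and 17.7.

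Related genes outside the rule for symbols were counted in the same way. Of 58 genes for other channels and for channel partners 38 were marked (65.5%, 52.7 to 76.4%), which is near the 62.7% of all protein-coding genes. Their median fold enrichment was 26.6, against 39.9 for all marked genes, and 0 had an NF-Y-ChIP peak within 1000 bp, beside 3.2% of all genes. All 4 Hcn pacemaker channel genes were marked, at 25.6 to 29.0, while none of the 6 Cnga and Cngb genes of sensory cells was. The partners of sodium channels Ank3, which anchors them at the axon initial segment, and Fgf11, Fgf12, Fgf13 and Fgf14 were all marked, at 21.9 to 32.8. Catsper2 of sperm was the strongest of the list at 73.8, and Catsper1, Catsper3 and Catsper4 had no peak. Promoters shared with neighbouring genes were not sought for this list. Its peaks, that of Catsper2 included, can therefore not be assigned to the listed gene alone.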

How the data were processed

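ChIP-seq was performed on input chromatin, NF-Y-ChIP (antibody YC5-3 against NF-YC) and H3K4me3-ChIP from E13.5 cortices, 1 library each. Per the study's methods and the processing notes of the submitters, the authors checked reads with FastQC, trimmed them with Trimmomatic, aligned them to mm10 with Bowtie2 (2.2.8) and called peaks with MACS2 (2.1.2). The threshold was a p-value of 0.001 for NF-Y-ChIP, and for H3K4me3-ChIP a q-value of 0.05. Input was a negative control, but the methods do not name it as the MACS2 control. The deposited fold enrichment is a ratio of the summit signal to the local background. The deposited −log10 values are those of the p-value and q-value, and the score column of the deposited lists equals 10 times −log10 of p (NF-Y-ChIP) or of q (H3K4me3-ChIP), rounded down, by which the 2 lists were told apart. The lists hold 733 and 18816 peaks. The input has no peak list used here. Values were used as deposited.

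TSSs were the 5′ ends of all GENCODE M21 transcripts, and sequences were read from GRCm38. The number of promoters that hold CCAAT or ATTGG counts either strand. Shares have Wilson 95% intervals, which treat genes as independent and cover counting error only, and no test was made, as there are no replicates. The members and all lists were chosen with earlier results of these data known. The genes named were every member with an NF-Y-ChIP peak, all sodium genes, the 8 potassium and 6 calcium genes with the highest and the 3 of each with the lowest fold enrichment, the 5 widest, the calcium and voltage-gated potassium pore genes without a peak (other potassium genes by family), the members with the most marked promoter regions (up to 6, where 24 were tied at 2 regions and were named by separate peaks instead), those with shared promoters and the list of channels outside the brain. A few genes that this rule names are not reported here. Family medians and examples beyond this rule were chosen after their values were seen. Alternatives covered distance limits, the sets of TSSs and of peaks, the value per gene and the sequence windows. The functions gave the planted answers on simulated data. Python 3.11.15, NumPy 2.4.6, SciPy 1.17.1, pysam 0.24.0 and matplotlib 3.10.9 were used.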

Additional observations from a re-analysis of the deposited data

How the results depend on the processing

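Of the 33 recomputed values 4 moved beyond 1.5 times or beyond the interval of the median, and no direction between marked and unmarked genes was turned. With the stronger 50% of peaks 48 channel genes were marked in place of 100, and with the other settings between 91 and 104. NF-Y-ChIP peaks gave 2 genes under all 9 alternatives. The median channel gene was at percentile 25.3 of all marked genes by strength (95% interval 19.6 to 35.3), and at 23.3 to 25.9 under the alternatives. By width it was at percentile 49.6, and at 58.1 when the peaks of a gene were summed. Between 11 and 18 genes had separately marked promoter regions. The CpG ratio of marked genes exceeded that of unmarked genes by 0.288 at the 5′ end and by 0.526 at the TSS nearest to the strongest peak, a start chosen by the peak for marked genes only. A CCAAT box was found in 39 genes, in 18 with the 100 bp before the start and in 73 with 500 bp before to 100 bp after, and in 34 at the TSS nearest to the strongest peak, an alternative added after seeing the data. Against all protein-coding genes the share with a box was lower in all 4 settings. No paired analysis was possible because each antibody has 1 library. Depth is unknown and limits which weak peaks were called.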
